A study of Mus musculus with 4 samples.

Results

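The genes described are 10 feedback inhibitors, transducers and transcription factors around the growth hormone and cytokine receptors of liver: Socs1, Socs2, Socs3 and Cish, Stat3, Stat5a and Stat5b, and Bcl6, Cux2 and Onecut1. They were taken by name, as every probe set to which the platform annotation gives 1 of these symbols and no other, which gave 26 probe sets for 10 of 18193 annotated genes. The brightest probe set of a gene by mean log2 signal over the 4 arrays stands for it, and all others are given beside it. The arrays were hybridised with RNA of whole liver slices from 9-month-old male mice that were fed chow and received no intervention, in a study of nonalcoholic fatty liver disease. The dam of AB6F1 males was AJ and the sire B6 (n = 2). The dam of B6AF1 males was B6 and the sire AJ (n = 2). Both crosses are first-generation hybrids with 1 autosomal set from each strain, so that they differ in the parent that gave each allele, in the X and Y chromosomes and in the mitochondria.

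Growth hormone and cytokines of the interleukin-6 family act through receptors without enzyme activity of their own, which carry JAK kinases. These kinases phosphorylate STAT proteins, which then enter the nucleus and bind DNA, STAT5a and STAT5b mainly after growth hormone and STAT3 after interleukin-6. SOCS proteins and CIS, the product of Cish, are themselves induced by STATs and shut the receptors off again. In rodent liver the pattern of growth hormone release differs between the sexes. Pulsed STAT5b activity in males, with the repressors BCL6 (higher in males) and CUX2 (largely restricted to females), shapes which hydroxysteroid, drug and bile acid genes are active.

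STATs recognise the palindrome TTCNNNGAA, called a GAS element, which reads the same on both strands. The RefSeq promoter table of mouse assembly GRCm38.p6, which gives 250 bases before and 50 after a gene's start, held 13 windows for 9 of the 10 genes; Socs2 was not among them. The motif was in 4 of these 13 windows, those of Cish, Socs3 and Bcl6, and in 2726 of all 32851 windows (8.3%). The 3 windows printed here are those of the inhibitors Cish and Socs3 and the Bcl6 window with the most copies, because Socs3 passed the test and Bcl6 and Cish had the widest spread between mice among the 9 genes bright enough to be tested. Capitals mark the motif; the strand is that of the gene.
Cish, chr9:107296409-107296708, plus strand: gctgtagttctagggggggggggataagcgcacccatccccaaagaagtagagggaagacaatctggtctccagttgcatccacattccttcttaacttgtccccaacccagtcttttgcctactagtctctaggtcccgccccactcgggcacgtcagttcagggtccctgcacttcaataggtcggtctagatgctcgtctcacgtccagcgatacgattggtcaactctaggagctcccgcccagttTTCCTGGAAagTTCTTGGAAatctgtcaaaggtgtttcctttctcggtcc
Socs3, chr11:117969317-117969616, minus strand: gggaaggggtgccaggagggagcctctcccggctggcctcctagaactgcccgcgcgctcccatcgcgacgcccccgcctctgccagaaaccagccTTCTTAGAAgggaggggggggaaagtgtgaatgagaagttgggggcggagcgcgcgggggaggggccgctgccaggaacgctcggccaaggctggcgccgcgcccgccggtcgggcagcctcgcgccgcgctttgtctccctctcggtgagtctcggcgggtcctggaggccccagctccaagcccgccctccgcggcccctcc
Bcl6, chr16:23981234-23981533, minus strand: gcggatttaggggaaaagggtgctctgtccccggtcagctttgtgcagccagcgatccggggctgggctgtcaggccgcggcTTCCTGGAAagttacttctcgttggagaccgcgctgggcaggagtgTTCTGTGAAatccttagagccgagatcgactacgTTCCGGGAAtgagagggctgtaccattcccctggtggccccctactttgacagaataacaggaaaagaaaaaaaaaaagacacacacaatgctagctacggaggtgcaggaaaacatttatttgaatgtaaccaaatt
The Cish window held 2 copies, which begin at the start base and 11 bases after it. The Socs3 window held 1 copy, 154 bases before the start. The printed Bcl6 window held 3 copies, 168, 122 and 88 bases before the start, and its other window held 1. These are matches of letters and were not tested as binding sites.

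Of the 9 genes bright enough to be tested, 1 passed: Socs3 rose 3.24-fold in AB6F1 livers on its brightest probe set. The other 8 did not pass, with limma adjusted p from 0.615 to 0.995. Cish stood higher on average in AB6F1 and Bcl6 lower, but the mice of each cross differed by as much or more. The messages of Stat5a and Stat5b, the transducers of growth hormone, were at -0.13 and -0.16 (log2 difference, AB6F1 minus B6AF1, as throughout). The share of all 11749 genes that passed limma, at a Benjamini-Hochberg adjusted p of 0.05, was 0.213% in either direction, 0.136% for genes higher in AB6F1 and 0.0766% for genes lower. The signals of the crosses were free of overlap in 2 of the 9 genes, Socs3 and Stat5b, against 41.2% of all genes. The median log2 difference was 0.21 over the 9 genes and 0.02 over all genes tested. Of the 9, 6 were positive, or 5 under each of 3 other scalings, where Socs2 turned, beside 53.5% of all genes.

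**Figure D1:**
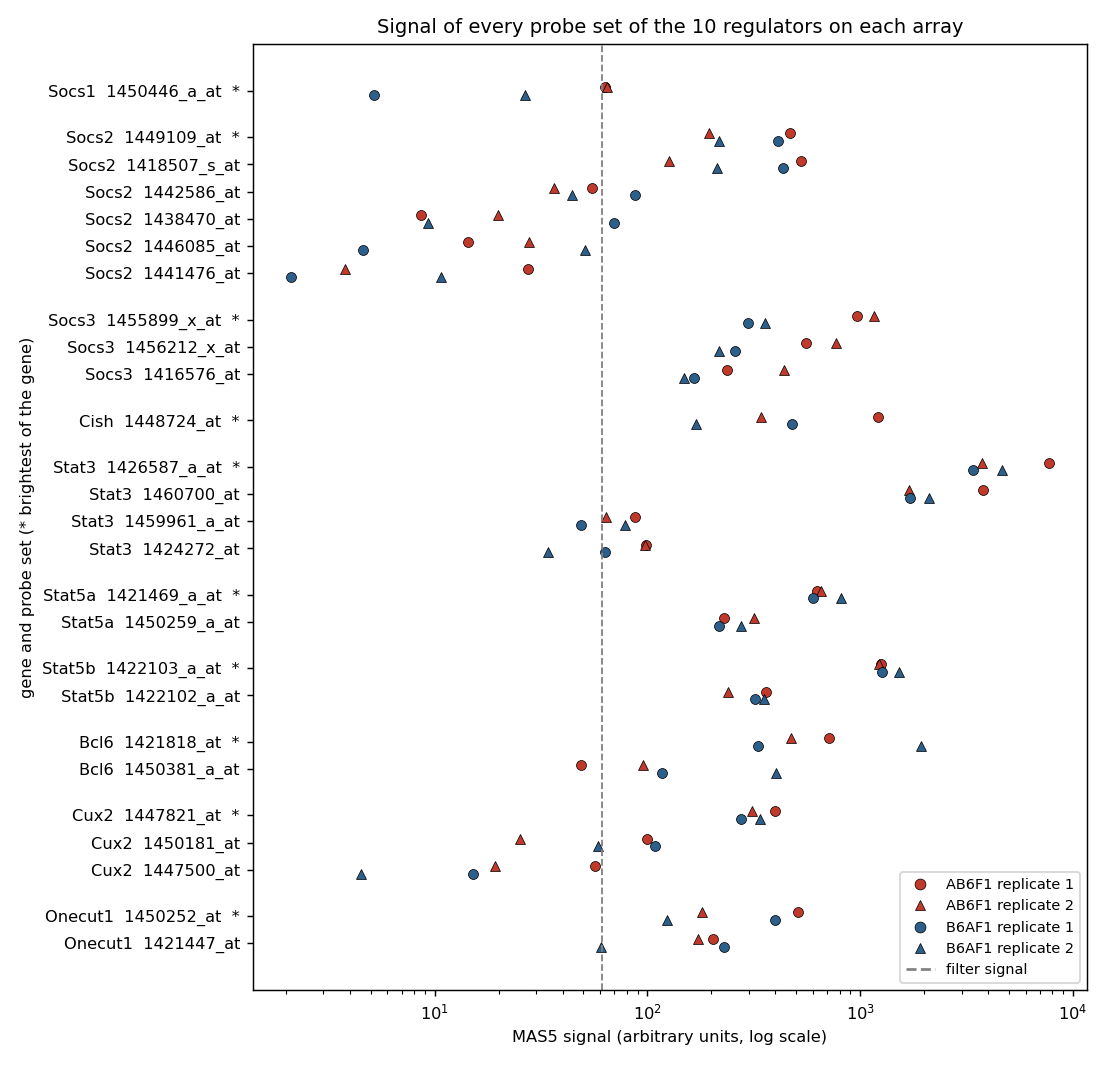
MAS5 signal (x axis, arbitrary units on a log scale) of each of the 26 probe sets on each array, grouped by gene, with AB6F1 above B6AF1 in each row, circles for replicate 1 and triangles for replicate 2; the dashed line is the expression filter at a signal of 60.9. On all 3 Socs3 probe sets both AB6F1 arrays lie right of both B6AF1 arrays, whereas for Cish, Socs2 and Onecut1 the circles and triangles of each cross lie far apart.

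Every array was scaled to a trimmed mean signal of 500, and the median signal of an array lay between 67.2 and 78.0. Pearson correlations of log2 signal between arrays, across genes, ran from 0.961 to 0.975. With 2 mice against 2 the smallest two-sided exact permutation p for a single gene is 0.333, so the tests given are those of limma, which pools information on the spread over all genes. The number of arrays limits the precision. Hepatocyte messages were strong on every array: Apoa1, the main protein of high-density lipoprotein, had 63740 and 57982 in AB6F1, against 59881 and 67939 in B6AF1. Samples of the crosses carry source identifiers from separate runs of numbers, so that the cross and any difference in collection cannot be told apart.

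Socs3 encodes an inhibitor that binds the shared interleukin-6 receptor chain gp130 and its JAK kinases, and whose gene is a classic target of STAT3. Its brightest probe set, 1455899_x_at, read 962 and 1161 in AB6F1 livers, against 296 and 359 in B6AF1 livers. Both AB6F1 arrays stood well above both B6AF1 arrays, and the mice of each cross were close to each other. The mean was 1062 ± 141 in AB6F1 and 327 ± 44.2 in B6AF1 (SD, n = 2 each), a log2 difference of 1.70 with an SE of 0.19 (limma adjusted p = 0.0262). The second probe set, 1456212_x_at, read 559 and 768 in AB6F1, against 257 and 218 in B6AF1. Its log2 difference was 1.47 ± 0.23 (SE), with a limma adjusted p of 0.0917 when each of 20100 probe sets was a test of its own. The third, 1416576_at, read 236 and 439 in AB6F1, against 165 and 149 in B6AF1, a log2 difference of 1.04 with an SE of 0.33 (limma adjusted p = 0.429). On all 3 the groups did not overlap, and AB6F1 replicate 2 was the highest array. In that fit of single probe sets the brightest one again passed (limma adjusted p = 0.0252), as did 0.159% of all probe sets.

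The 3 Socs3 probe sets thus gave the same direction and unequal sizes. The suffix _x_at marks probe sets with probes that can also bind other sequences, and the only probe set without it gave the smallest difference. A test of the disagreement itself, on the per-array log2 ratio of the brightest probe set to another one of the gene, gave 0.66 ± 0.31 (SE) between 1455899_x_at and 1416576_at, with a limma adjusted p of 0.817 over 8351 such pairs in all genes. Between the _x_at probe sets it gave 0.23 ± 0.24 (SE; limma adjusted p = 0.894). No pair of any gene passed this test in limma, 0 of 8351, while 526 pairs (6.3%) had an unadjusted p under 0.05, none of them among the 11 pairs of the genes described here. The call on Socs3 was lost when probe sets of suffix _x_at and _s_at were left out (log2 difference 1.04, limma adjusted p = 0.420) and when all its probe sets were averaged (1.40, 0.187). It was also lost without B6AF1 replicate 1 (1.56, 0.329) or B6AF1 replicate 2 (1.84, 0.260), where 1 gene of all passed.

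The tested genes whose profile over the 4 arrays was closest to that of Socs3, by the root mean square distance between log2 signals centred on each gene's mean, were Hao2 (0.06), Tnc (0.11) and Slc22a27 (0.12). Hao2, a peroxisomal hydroxyacid oxidase, read 5176 and 5789 in AB6F1, against 1663 and 1851 in B6AF1. Tnc, the matrix protein tenascin C, read 129 and 143 in AB6F1, against 44.0 and 52.7 in B6AF1, below the filter. This is a likeness of 4 values only.

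Socs1 encodes the SOCS protein best known for restraining interferon signalling. Its single probe set, 1450446_a_at, read 63.2 and 64.6 in AB6F1, against 5.2 and 26.7 in B6AF1. The groups did not overlap, but the mean log2 signal lay below the filter at a signal of 60.9, both B6AF1 values were dim and unlike each other, and no fold is given. In a fit without the filter Socs1 did not pass (limma adjusted p = 0.599).

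Socs2 encodes the feedback inhibitor of the growth hormone receptor whose loss causes gigantism in mice. Its brightest probe set, 1449109_at, read 469 and 195 in AB6F1, against 410 and 218 in B6AF1. The groups overlapped fully, and in each cross replicate 1 was about as far above replicate 2. The log2 difference was 0.02 ± 0.46 (SE; limma adjusted p = 0.995), and its sign changed to -0.070 after quantile normalization, -0.12 after median centring and -0.060 after cyclic loess. The second probe set, 1418507_s_at, showed the same order of arrays, with 528 and 126 in AB6F1, against 432 and 213 in B6AF1 and a log2 difference of -0.23 with an SE of 0.63 (limma adjusted p = 0.935). The other 4 probe sets of Socs2 lay below the filter, with signals from 2.1 to 87.2 and log2 differences of both signs.

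Cish encodes CIS, a relative of SOCS2 that blocks STAT5 docking at receptors and is among the genes most directly induced by STAT5. The array has 1 probe set for it by this rule, 1448724_at, so that no other can be set beside it. It read 1212 and 344 in AB6F1, against 478 and 169 in B6AF1. AB6F1 replicate 1 was the highest array and B6AF1 replicate 2 the lowest, and the groups overlapped because AB6F1 replicate 2 lay below B6AF1 replicate 1. The mean was 778 ± 614 in AB6F1 and 323 ± 219 in B6AF1 (SD, n = 2 each), a log2 difference of 1.19 with an SE of 0.66 (limma adjusted p = 0.615). Leaving out AB6F1 replicate 1 or 2 gave 0.28 or 2.09. Leaving out B6AF1 replicate 1 or 2 gave 1.94 or 0.43.

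Stat3 encodes the transducer of interleukin-6 signals. Its brightest probe set, 1426587_a_at, read 7756 and 3740 in AB6F1, against 3407 and 4634 in B6AF1, and the next, 1460700_at, read 3790 and 1700 in AB6F1, against 1711 and 2098 in B6AF1. On both probe sets AB6F1 replicate 1 stood apart above the other 3 arrays, and the other AB6F1 array lay within or below the range of B6AF1. Their log2 differences were 0.44 ± 0.33 and 0.42 ± 0.33 (SE), with limma adjusted p of 0.700 and 0.748. Leaving out AB6F1 replicate 1 took the log2 difference of Stat3 to -0.087. Leaving out AB6F1 replicate 2, which left a single AB6F1 mouse, took it to 0.96. The other probe sets were dim, and 1424272_at read 98.8 and 96.9 in AB6F1, against 62.9 and 34.0 in B6AF1. That probe set reached the filter through AB6F1 alone, so that it could be tested only by being higher there, and no size is given. The last, 1459961_a_at, gave 0.27 ± 0.56 (SE) and did not pass, with a limma adjusted p of 0.914.

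Stat5b, the transducer of pulsed growth hormone in male liver, read 1254 and 1220 in AB6F1, against 1263 and 1517 in B6AF1 on its brightest probe set, 1422103_a_at. The AB6F1 arrays lay just below the lower B6AF1 array. The log2 difference was -0.16 ± 0.15 (SE; limma adjusted p = 0.759), and the other probe set, 1422102_a_at, gave -0.20 ± 0.26 (SE). Its neighbour and close relative Stat5a read 624 and 655 in AB6F1, against 601 and 813 in B6AF1 on 1421469_a_at. The groups overlapped, and its probe sets differed in sign, at -0.13 ± 0.19 and 0.14 ± 0.27 (SE; limma adjusted p = 0.857 and 0.905). The 95% interval of the log2 difference from limma ran from -0.51 to 0.19 for Stat5b and from -0.58 to 0.32 for Stat5a. The activity of STAT5 proteins is set by phosphorylation, which arrays do not read.

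Bcl6, a zinc-finger repressor that shares many binding sites with STAT5, read 716 and 475 in AB6F1, against 330 and 1942 in B6AF1 on its brightest probe set, 1421818_at. B6AF1 replicate 2 was the highest array and B6AF1 replicate 1 the lowest, so that the AB6F1 arrays lay between them. The log2 difference was -0.46 ± 0.72 (SE; limma adjusted p = 0.865); leaving out B6AF1 replicate 1 or 2 gave -1.74 or 0.82. Leaving out AB6F1 replicate 1 or 2 gave -0.75 or -0.16. The dimmer probe set, 1450381_a_at, read 48.7 and 95.8 in AB6F1, against 117 and 404 in B6AF1. B6AF1 replicate 2 was again the highest, but here the groups did not overlap, and the log2 difference was -1.67 ± 0.63 (SE; limma adjusted p = 0.496). The disagreement between these probe sets was 1.21 ± 0.63 (SE; limma adjusted p = 0.822).

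Cux2, a homeodomain repressor that in mouse liver is normally a female product, read 396 and 310 in AB6F1, against 275 and 337 in B6AF1 on its brightest probe set, 1447821_at. The groups overlapped, with a log2 difference of 0.21 with an SE of 0.23 (limma adjusted p = 0.806). The next probe set, 1450181_at, read 99.4 and 25.1 in AB6F1, against 109 and 58.4 in B6AF1. It reached the filter through B6AF1 alone, so that it could be tested only by being higher there, and no size is given. The third, 1447500_at, lay below the filter and read 56.5 and 19.2 in AB6F1, against 15.1 and 4.5 in B6AF1, with no overlap and no test. The 3 probe sets of Cux2 therefore gave both signs, the negative one on 1450181_at alone. A test of disagreement between the brighter pair (limma adjusted p = 0.856) takes in that probe set and is not read as a result.

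Onecut1 encodes HNF6, a hepatocyte factor that in rat liver is induced by growth hormone. On 1450252_at it read 513 and 181 in AB6F1, against 396 and 123 in B6AF1, and on 1421447_at 202 and 172 in AB6F1, against 230 and 60.4 in B6AF1. Replicate 1 was above replicate 2 in both crosses on both probe sets, and the groups overlapped. The log2 differences were 0.46 ± 0.64 and 0.66 ± 0.59 (SE; limma adjusted p = 0.846 and 0.776). For the first, leaving out AB6F1 replicate 1 or 2 gave -0.29 or 1.22, and leaving out B6AF1 replicate 1 or 2 gave 1.31 or -0.38.

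**Figure D2:**
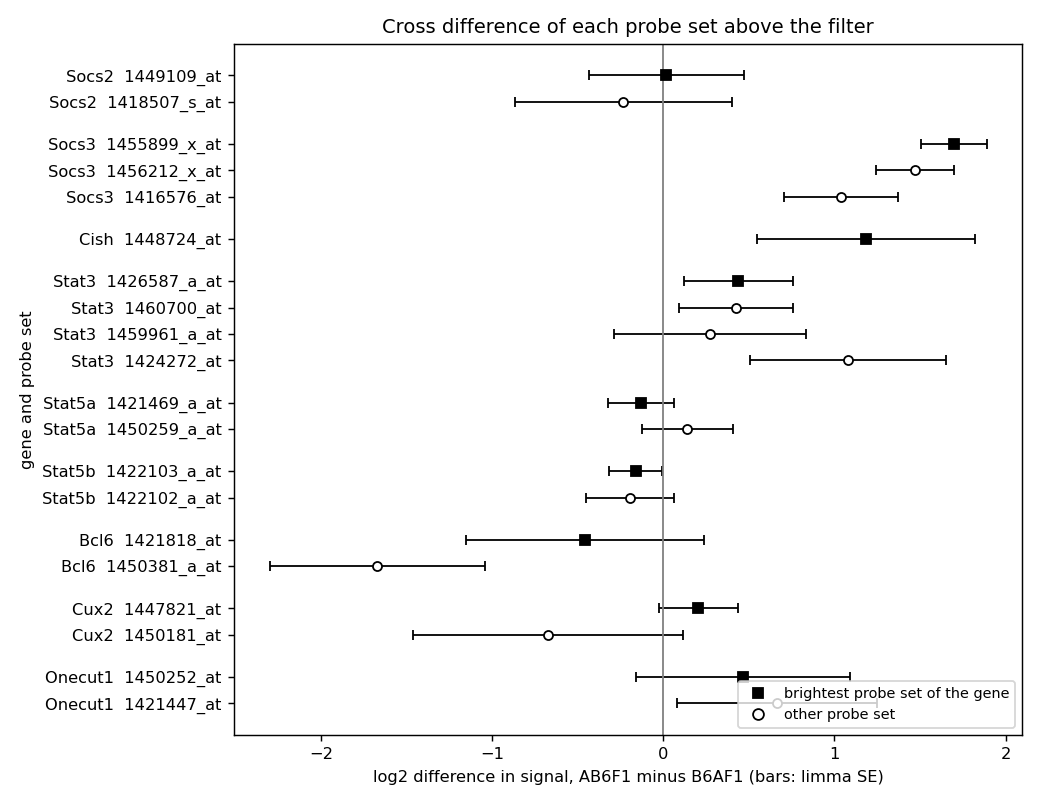
Log2 difference in signal, AB6F1 minus B6AF1, with limma's SE as bars, for the 20 probe sets above the filter; filled squares are the brightest probe set of each gene. The 3 Socs3 probe sets lie between 1.04 and 1.70, and the probe sets of Socs2, Stat5a and Cux2 lie on both sides of 0. Among those shown, 1424272_at of Stat3 and 1450181_at of Cux2 reached the filter through 1 cross alone.

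Taken by probe set, 20 of the 26 were above the filter, 13 of them positive and 7 negative. Of the 20, 1 passed limma over all probe sets, against 0.159% of all. The signals of the crosses were free of overlap for 6 of the 20 (30.0%), against 40.1% of all probe sets. These 6 were the 3 of Socs3, the dimmest of Stat3, the brighter of Stat5b and the dimmer of Bcl6. The probe set 1424272_at of Stat3 passed the filter through its AB6F1 signals alone and 1450181_at of Cux2 through its B6AF1 signals alone. Each could be tested only by being higher there, so its part in these counts is not read as a result. Of the 8 genes with several probe sets above the filter, 3 (Socs2, Stat5a and Cux2) had both signs among them, Cux2 only through 1450181_at.

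Of the 9 tested genes, 5 varied more between mice of a cross than 90% of all genes did. The residual SD of log2 signal, the spread left after the crosses' means are removed, was 1.31 for Bcl6, 1.18 for Cish, 1.13 for Onecut1, 0.78 for Socs2 and 0.57 for Stat3, against a median of 0.19 over all genes. They stood at the 99.1, 98.7, 98.5, 95.5 and 90.3 percentiles of 11749 genes. In both crosses replicate 1 was above replicate 2 for Cish, Socs2 and Onecut1, and below it for Socs3 and Stat5a. Over all genes tested, 47.3% had the same order of replicates in both crosses. In AB6F1, replicate 1 was above replicate 2 by 1.82 for Cish, 1.27 for Socs2 and 1.50 for Onecut1 on the log2 scale, and in B6AF1 by 1.50, 0.91 and 1.69. Bcl6 went the other way in B6AF1, where replicate 1 was at -2.56 relative to replicate 2. Socs3, Stat5a, Stat5b and Cux2 had residual SDs of 0.13 to 0.23. Nothing in the labels pairs the mice of different crosses.

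**Figure D3:**
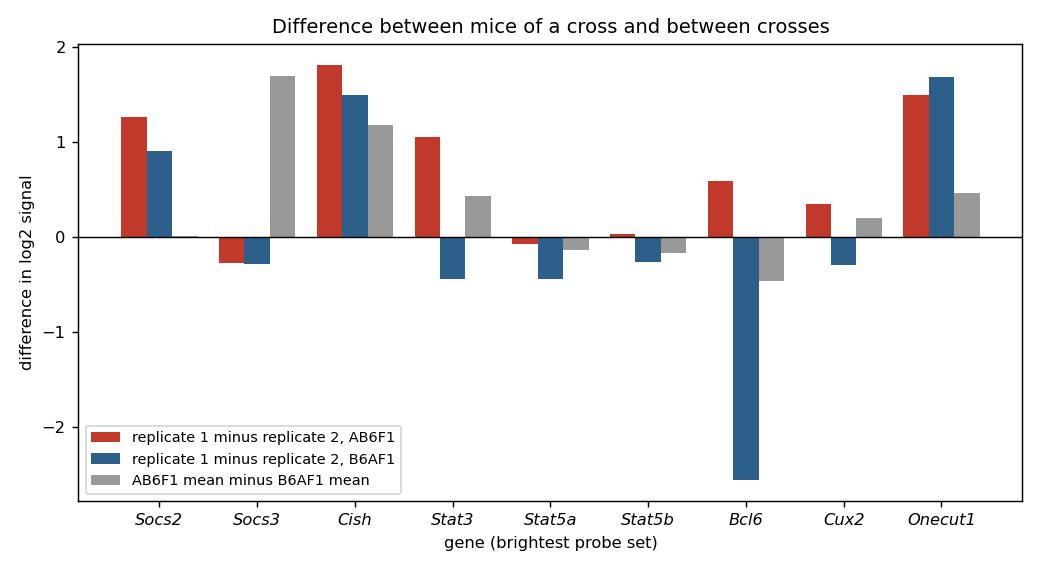
Difference in log2 signal of the brightest probe set between the mice of a cross (replicate 1 minus replicate 2; AB6F1 red, B6AF1 blue) and between the means of the crosses (AB6F1 minus B6AF1, grey) for the 9 tested genes. Among genes with a cross difference above 1, it exceeds both within-cross differences for Socs3, at 1.70, and not for Cish, at 1.19.

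None of the receptors and kinases upstream passed limma, 0 of 16 tested, with 3 at an unadjusted p under 0.05, a level reached by 9.72% of all genes. Of the 16, 13 were positive with a median log2 difference of 0.11, but 7 were after median centring, with a median of -0.03. Ghr, the growth hormone receptor, read 16373 and 16992 in AB6F1, against 20282 and 20635 in B6AF1. Both AB6F1 arrays were lower, by a small amount: the log2 difference was -0.29 ± 0.11 (SE; limma adjusted p = 0.463), with -0.38 and -0.60 on its other probe sets. Jak2, the kinase of that receptor, was at 0.09 ± 0.21 (SE; limma adjusted p = 0.913). Lifr, the receptor of leukaemia inhibitory factor, was at -1.13 ± 0.25 (SE; limma adjusted p = 0.225) on its brightest probe set but at 0.09 and 0.01 on its others. Ifngr1, an interferon gamma receptor chain, was at 0.47 ± 0.19 (SE; limma adjusted p = 0.486).

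Other SOCS and STAT genes and inhibitors of the pathway did not pass either, 0 of 16 tested in limma with 2 at an unadjusted p under 0.05, 8 positive and 8 negative, with a median of -0.0009. Pias2, a SUMO ligase of the family that inhibits STATs, was at -0.49 ± 0.15 (SE; limma adjusted p = 0.387). Its other probe sets gave only -0.13 and -0.17. Socs5 read 315 and 417 in AB6F1, against 277 and 168 in B6AF1, a log2 difference of 0.75 with an SE of 0.30 (limma adjusted p = 0.496), with 0.68 on its other probe set. Ptpn1, a phosphatase that acts on JAK2, was at 0.28 ± 0.14 (SE; limma adjusted p = 0.589). Among 20 other liver transcription factors none passed limma, with 5 at an unadjusted p under 0.05; 10 were positive and 10 negative, with a median of 0.01. Nr0b2, the small heterodimer partner SHP, read 1336 and 3336 in AB6F1, against 4387 and 5111 in B6AF1, a log2 difference of -1.17 with an SE of 0.38 (limma adjusted p = 0.408). Trim24 was at 0.60 ± 0.19 (SE; limma adjusted p = 0.384), with -0.05 on its other probe set, and Nr5a2, the bile acid gene activator LRH-1, was at -0.41 ± 0.12 (SE; limma adjusted p = 0.384).

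Among genes usually found downstream, the list of growth hormone targets was lower in AB6F1 on balance. Of 16 tested genes induced by growth hormone and STAT5 in male liver, 15 were negative (14 after quantile normalization or cyclic loess), with a median log2 difference of -0.68, and 2 fell past the test (6 after median centring, 3 after cyclic loess). These were the oxysterol hydroxylase Cyp7b1, at -1.89 ± 0.13 (SE; limma adjusted p = 0.00679), and the anion transporter Slco1a1 (limma adjusted p = 0.0445). Slco1a1 read 107.5 and 11.2 in AB6F1, against 7166 and 4197 in B6AF1. Of the 16, 2 (Slco1a1 and Hsd3b5) reached the filter through B6AF1 alone, so that they could be tested only by being lower in AB6F1, and no size is given for them. Complement C6 was next, at -1.40 ± 0.18 (SE; limma adjusted p = 0.0506). Igf1, the growth factor through which growth hormone acts on the body, read 15542 and 15978 in AB6F1, against 18891 and 20528 in B6AF1, a log2 difference of -0.32 with an SE of 0.11 (limma adjusted p = 0.437), and its other 3 probe sets gave -0.07 to -0.28. Of 12 tested genes that are usually higher in female liver, 11 were positive, with a median of 1.43, and 6 rose past the test: Sult2a2, Hao2, Sult3a1, Vnn1, Abcd2 and Cyp2b13, with limma adjusted p from 0.00429 to 0.0378 (7 passed after median centring). Of these, 2 reached the filter through AB6F1 alone and could be tested only by being higher there: Sult2a2, which read 7771 and 13875 in AB6F1, against 24.8 and 65.4 in B6AF1, and Sult3a1, which read 1003 and 536 in AB6F1, against 29.1 and 42.1 in B6AF1. The counts and medians of the 2 lists include Slco1a1, Hsd3b5, Sult2a2 and Sult3a1, each tested only through the cross where it was high. Over all genes tested, 53.5% were positive, 0.136% rose past the test and 0.0766% fell past it. These lists were drawn up with their shift in these arrays already known and are not independent evidence of it.

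For the STAT3 arm, 1 of 28 tested acute-phase genes rose past the test, Saa2, a serum amyloid A, at 2.98 ± 0.25 (SE; limma adjusted p = 0.00828). Of the 28, 17 were positive with a median of 0.10, and under other scalings 13 (median centring, median -0.04) to 24 (cyclic loess) were. Saa1 and Orm3, an orosomucoid, were at 2.23 ± 0.41 and 1.89 ± 0.37 (SE; limma adjusted p = 0.152 and 0.180). The mean log2 signal of the 28, centred over the arrays, was 0.60 and -0.03 in AB6F1, against -0.40 and -0.17 in B6AF1. On this mean AB6F1 replicate 1 stood highest, as it did for Stat3 and Cish. Socs3 read 962 in AB6F1 replicate 1 and 1161 in AB6F1 replicate 2. A relation of Socs3 to these genes was not tested.

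**Figure D4:**
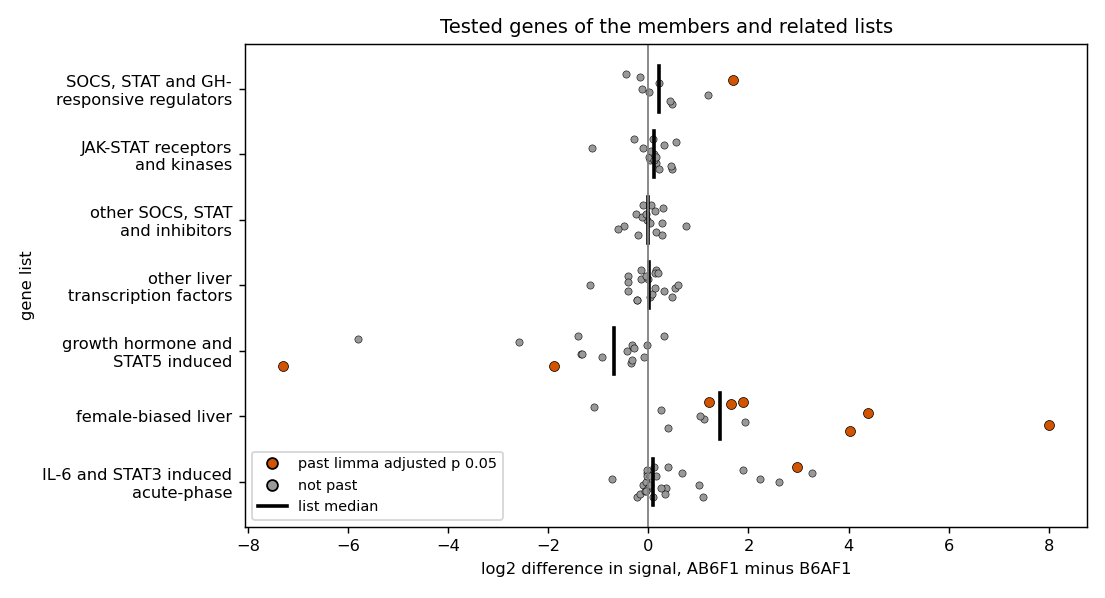
Log2 difference in signal (x axis, AB6F1 minus B6AF1) of each tested gene in the 10 regulators, of which 9 were tested, and in 6 related lists; orange points passed limma at an adjusted p of 0.05 and black bars are list medians. The medians of the regulators, receptors, inhibitors and transcription factors lie between -0.0009 and 0.21, with Socs3 as the 1 orange point. Growth hormone induced genes lie mostly left, the farthest of them dim in AB6F1, and female-biased genes mostly right, the farthest of them dim in B6AF1.

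Whole liver holds cells other than hepatocytes, in which SOCS genes are also active, and in bulk RNA fewer cells of a type and less RNA per cell cannot be told apart. Macrophage markers were positive for all 15 tested genes, under all 3 other scalings as well, beside 53.5% of all genes. None passed limma, and 10 had an unadjusted p under 0.05, a level reached by 9.72% of all genes. Their summed signal was 22946 and 14058 in AB6F1, against 9124 and 12477 in B6AF1. The brightest were Csf1r, at 0.58 ± 0.22, and Ctss, at 1.06 ± 0.33 (SE; limma adjusted p = 0.476 and 0.392). Neutrophil markers were positive for 4 of 6, with none past the test in limma and 2 at an unadjusted p under 0.05, and a summed signal of 1602 and 691 in AB6F1, against 677 and 390 in B6AF1. Those of highest mean signal were S100a8, which read 602 and 121 in AB6F1, against 76.8 and 23.0 in B6AF1, and S100a9, which read 405 and 97.9 in AB6F1, against 69.8 and 40.6 in B6AF1. Both reached the filter through AB6F1 alone, so that they could be tested only by being higher there, and no size is given. They were the 2 at an unadjusted p under 0.05, and their signals are part of the sum. The counts and the sum of this list are therefore not read as a result. Mpo and Ngp were negative, at -0.28 and -0.11, and Csf3r and Elane positive, at 1.28 and 0.42. Lymphocyte markers were positive for 4 of 6, with a summed signal of 1261 and 751 in AB6F1, against 633 and 749 in B6AF1. Of the 6, 3 reached the filter through 1 cross alone. The brightest, Ptprc and Cd79b, were at 1.05 ± 0.27 and 0.54 ± 0.57 (SE; limma adjusted p = 0.305 and 0.797). Ptprc, which other leukocytes also express, gave 732 and 466 of that sum in AB6F1, against 247 and 321 in B6AF1. Stellate cell markers were positive for 9 of 11, of which 2, Col3a1 and Col1a2, rose past the test (1 of them after quantile normalization). Over all genes, 0.136% rose past it. Their summed signal was 16475 and 20198 in AB6F1, against 13310 and 12754 in B6AF1. Of the 11, 1 reached the filter through AB6F1 alone and could be tested only by being higher there. That marker is among the 9 and part of the sum. The brightest, Dcn and Reln, were at 0.03 ± 0.17 and 0.17 ± 0.12 (SE; limma adjusted p = 0.971 and 0.689). The macrophage, lymphocyte and endothelial sums were higher in AB6F1 replicate 1 than in AB6F1 replicate 2. For the endothelial sum the values were 4657.5 and 4172.9 in AB6F1, against 3614.2 and 4840.9 in B6AF1. Socs3 and the stellate cell and cholangiocyte sums had the opposite order within AB6F1. Hepatocyte sums were nearly equal there, at 300040 and 301228. The cholangiocyte sum, over 3 tested genes, was 309 and 351 in AB6F1, against 241 and 263 in B6AF1. Each order is that of 2 mice. All 12 tested hepatocyte markers were negative, with a median of -0.20, although 3 of them were positive after quantile normalization or cyclic loess. The part of these cell types in the values of Socs3, Socs1 and Cish was not tested.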

How the data were processed

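Biotin-labelled cRNA from Trizol-extracted liver RNA was hybridised to Affymetrix arrays, per the labels' protocols. The deposited values are linear intensity units, 1 signal per probe set, made with MAS5 according to the submitters' processing notes, with no version given. Each array, from its values, was scaled to a mean of 500 after 2% of probe sets were dropped at each end. Detection calls were not used here. Promoter windows come from RefSeq, GRCm38.p6. Of 45101 probe sets, 34945 had a single symbol, updated through gene identifiers for 34754.

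Each gene was read by its brightest probe set, and genes with a mean log2 signal below the median of 45037 non-control probe sets, equal to a signal of 60.9, were dropped, leaving 11749. Log2 signals without a pseudocount were compared as AB6F1 minus B6AF1 with limma 3.58.1 in R 4.3.3 (lmFit, eBayes with intensity trend; two-sided; Benjamini-Hochberg over all genes, threshold 0.05). SEs are limma's moderated ones, with 4.97 prior degrees of freedom beside 2 of the residuals; folds are powers of log2 differences. Values of the brightest probe set come from the gene fit, those of others from a fit of all 20100 probe sets above the filter. The fit was tested on simulated data, but no outcome of that is given here. Alternatives were 3 scalings, 16 added to the signal, other filters and probe set rules, other variance models, a replicate block and each array left out.

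The genes named are the 10 regulators, the tested genes of smallest p (up to 3) and all that passed in each related list, Ghr, Jak2 and Igf1, the 3 profiles nearest to Socs3, and, for macrophages, neutrophils, lymphocytes and stellate cells, the 2 markers of highest mean signal; Col3a1, Col1a2 and the other neutrophil markers were added after their values were seen. Listed genes without a probe set of 1 symbol above the filter were not analysed here. The regulators and lists were chosen with earlier results of these data known. Replicate numbers were not treated as pairs: nothing ties same-numbered mice together, and their deviations from the cross means correlated at -0.03 across genes.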

Additional observations from a re-analysis of the deposited data

How the results depend on the processing

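Over all genes, 25 passed limma (16 higher, 9 lower). There were 49 after median centring (28 higher, 21 lower), which moved the median log2 difference of all genes to -0.11 against 0.02, 9 with all probe sets of a gene averaged, 0 without the intensity trend in eBayes (1044 at an unadjusted p under 0.05) and 62 with the replicate block; leaving out 1 array gave 1 to 242. Among the regulators, 1 passed, and 0 did without probe sets of suffix _x_at or _s_at, with probe sets averaged and without the trend; leaving out 1 array gave 0 to 2, where the second was Stat3 without AB6F1 replicate 2. For Socs3 the log2 difference was 1.04, 1.40 and 1.70 under those 3 settings, with limma adjusted p of 0.420, 0.187 and 0.352, and 1.56 to 1.84 with 1 array left out; the cause was not tested. The direction of Socs3 held under all 15 settings. With no overlap of the crosses on any of its probe sets, only the 3 other scalings could have turned it. Under the 11 settings that kept every array its limma adjusted p lay between 0.00506 and 0.420. Of these, it lost the call only without suffix _x_at or _s_at, with probe sets averaged and without the trend. With the replicate block Socs3 had a limma adjusted p of 0.00506 and Cish 0.0672, and no call among the tested regulators changed.

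Signs turned for genes that did not pass. Socs2 was at -0.070, -0.12 and -0.060 after quantile normalization, median centring and cyclic loess, and ran from -0.62 to 0.65 with 1 array left out. Stat5a was at 0.0043 with probe sets averaged and ran from -0.35 to 0.088. With 1 array left out, Stat3 ran from -0.087 to 0.96, Bcl6 from -1.74 to 0.82 and Onecut1 from -0.38 to 1.31. Cish, Cux2 and Stat5b kept their sign under every setting run, as did the untested Socs1. The crosses did not overlap for Socs1 or on the brightest probe set of Stat5b, so leaving out an array could not turn those signs. Dim probe sets, those near or under a signal of 60.9, have log ratios too noisy for a size.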
